A study of Homo sapiens with 9 samples.

Results

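The p53 pathway genes described here are 34 genes that are known as targets or partners of the tumour suppressor p53, among them MDM2 and CDKN1A. They were taken by gene symbol, and a row with each of the 34 symbols stands among the 59648 rows of the count files. Of the 14741 genes with enough reads to be tested, 32 are members. PHLDA3, which encodes a repressor of AKT signalling, had 0 or 1 count in every library, and SPATA18, which encodes a protein of mitochondrial quality control, had 0 to 7 counts, so neither was tested.

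RNA sequencing read the mRNA levels of Kasumi-1, an established cell line from a human acute myeloid leukaemia with the t(8;21) translocation, which makes the fusion transcription factor AML1-ETO (AE, also called RUNX1-RUNX1T1). The series holds 3 groups of 3 libraries: cells with an shRNA against AE (AE knockdown, numbered 1 to 3), cells with an shRNA against the transcription factor gene LYL1 (LYL1 knockdown, shRNAs 538, 540 and 542) and cells with a control shRNA (numbered 1 to 3). All 9 libraries, the controls included, come from lentivirus-infected cells that had 48 h with the virus and then 48 h with 1 µg/mL puromycin, and RNA was taken on day 4. Whether AE numbers 1 to 3 are different shRNAs, or libraries of 1 group separate cultures, is not in the labels, and the p-values then reflect the spread of these libraries, which may be technical. Each LYL1 shRNA is 1 library.

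p53 is a transcription factor that is held at low levels by MDM2, a ubiquitin ligase that marks it for destruction, and by the related protein MDM4. DNA damage and other stresses release p53 from MDM2, and it then raises genes that stop the cell cycle, repair DNA, tune metabolism or kill the cell, and also MDM2 itself, which closes a feedback loop. Many members are also described as answering to other factors.

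The sequences of 4 members are shown: MDM2 and CDKN1A, and FAS and RPS27L, members called after AE knockdown with a p53 half-site in a window. They are the 250 bases before a transcription start, from RefSeq on GRCh38.p14, given in the direction of the gene. Capitals mark a match to the p53 element (a head-to-tail pair of half-sites with no spacer and at most 2 mismatches) in MDM2 and FAS, and to a single half-site with no mismatch in RPS27L. Lower case throughout, in CDKN1A, means that neither is in that window, and it says nothing of sites farther away, where CDKN1A is known to have them. The windows are chr12:68808767-68809016 (plus strand) for MDM2, chr10:88991181-88991430 (plus strand) for FAS, chr15:63157478-63157727 (minus strand) for RPS27L and chr6:36678464-36678713 (plus strand) for CDKN1A.
MDM2: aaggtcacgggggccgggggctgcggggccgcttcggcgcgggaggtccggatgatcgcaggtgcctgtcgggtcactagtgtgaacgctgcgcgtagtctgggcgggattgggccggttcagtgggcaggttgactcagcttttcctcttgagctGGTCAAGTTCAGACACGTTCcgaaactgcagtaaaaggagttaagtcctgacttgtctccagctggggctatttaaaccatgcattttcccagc
FAS: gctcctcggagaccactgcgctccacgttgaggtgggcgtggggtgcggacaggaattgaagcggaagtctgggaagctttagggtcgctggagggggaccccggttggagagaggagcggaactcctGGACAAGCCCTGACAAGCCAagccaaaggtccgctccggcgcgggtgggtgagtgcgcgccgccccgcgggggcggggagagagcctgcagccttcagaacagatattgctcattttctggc
RPS27L: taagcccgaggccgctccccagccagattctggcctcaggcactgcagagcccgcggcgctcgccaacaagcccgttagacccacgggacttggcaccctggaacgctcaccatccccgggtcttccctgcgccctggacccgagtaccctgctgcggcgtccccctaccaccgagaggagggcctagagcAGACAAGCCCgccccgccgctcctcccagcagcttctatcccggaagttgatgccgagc
CDKN1A: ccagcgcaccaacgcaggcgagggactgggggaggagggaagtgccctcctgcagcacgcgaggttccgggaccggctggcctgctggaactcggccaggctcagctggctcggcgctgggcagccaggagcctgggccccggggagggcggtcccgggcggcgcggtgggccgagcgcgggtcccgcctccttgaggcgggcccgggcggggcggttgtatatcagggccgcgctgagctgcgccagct
A promoter window was found for 28 of the 34 members, with 40 windows in all, since some genes have several starts. Both strands were searched. The p53 half-site with no mismatch was in 6 of the 40 windows (15%), those of AEN, FAS, FDXR, PLK2, RPS27L and SESN1, against 5.57% of the 35116 promoter windows in the table. The full p53 element was in 4 of the 40 windows (10%), from AEN, FAS and MDM2, against 0.242% of all windows. Overlapping windows of MDM2 hold the same element, so these 4 windows hold 3 different elements, and the other windows of MDM2 and FAS hold none. Each element in FAS and AEN includes the half-site counted above. The RUNX core motif TGTGGT, read by AML1, was in 3 member windows (7.5%), those of PPM1D, TRIAP1 and ZMAT3, against 11% of all windows. These matches describe the letters in the windows and are no measure of binding.

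Library totals ran between 20103275 and 28039518 counts. Levels are given in CPM, counts scaled to library size with TMM factors, which do not allow for gene length, so levels are compared within a gene only. The targeted genes served as a check of the labels: RUNX1T1, the ETO part of the fusion, had 114, 136 and 87.7 CPM in AE knockdown cells, 183, 201 and 262 CPM in LYL1 knockdown cells and 216, 223 and 212 CPM in control cells, a fall of 1.92-fold in the AE knockdown (adjusted p = 0.00778). LYL1 had 80.4, 98.4 and 43.9 CPM with shRNAs 538, 540 and 542, against 172, 172 and 143 CPM in control cells, which did not overlap, although the adjusted p was 0.527. Replicate 3 of the AE knockdown stood apart. In it 8 markers of mature myeloid cells summed to 4518 CPM, against 603 and 585 CPM in the other AE libraries. They summed to 94.4 to 152 CPM with LYL1 shRNAs and 91.2 to 101 CPM in control libraries. BPI alone gave 3645 of the 4518 CPM in replicate 3. CSF1R, TYROBP, CEBPE, S100A8 and S100A9 were also highest there, while FPR1 had 0 counts and CD14 1 count. Ribosomal protein genes took 11.6% of the reads in replicate 3, against 7.685% and 7.738% in the other AE libraries. In LYL1 knockdown and control libraries they took 4.48% to 5.82%. The 7 identity markers of the line were detected in every library, and 9 markers of red, lymphoid, fibroblast and epithelial cells summed to 1.12 to 1.9 CPM, with HBA1, COL1A2 and KRT18 at 0 throughout. Fewer cells of a type and less RNA per cell cannot be told apart in such bulk samples.

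Knockdown of AE moved individual p53 pathway genes in both directions. A gene is called where edgeR's quasi-likelihood test gives a Benjamini-Hochberg adjusted p below 0.05 over all 14741 genes, and all adjusted p-values below are from that test unless another is named. FAS, APAF1, CYFIP2 and RPS27L rose, CDKN1A, PLK3 and XPC fell, and 25 members were not called. These 7 of 32 (21.9%) stand beside 21.8% of all genes tested, of which 11.4% were higher and 10.4% lower, so the members were called about as often as any gene. Their median log2 fold change was 0.24, against 0.05 over all genes tested. For 14 members the 3 AE libraries were all above (9) or all below (5) the 3 controls, where 45.2% of all genes were, 23.1% above and 22.2% below. Without AE replicate 3, 7 members were again called, 6 of them the same genes, with ZMAT3 in place of APAF1.

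**Figure D1:**
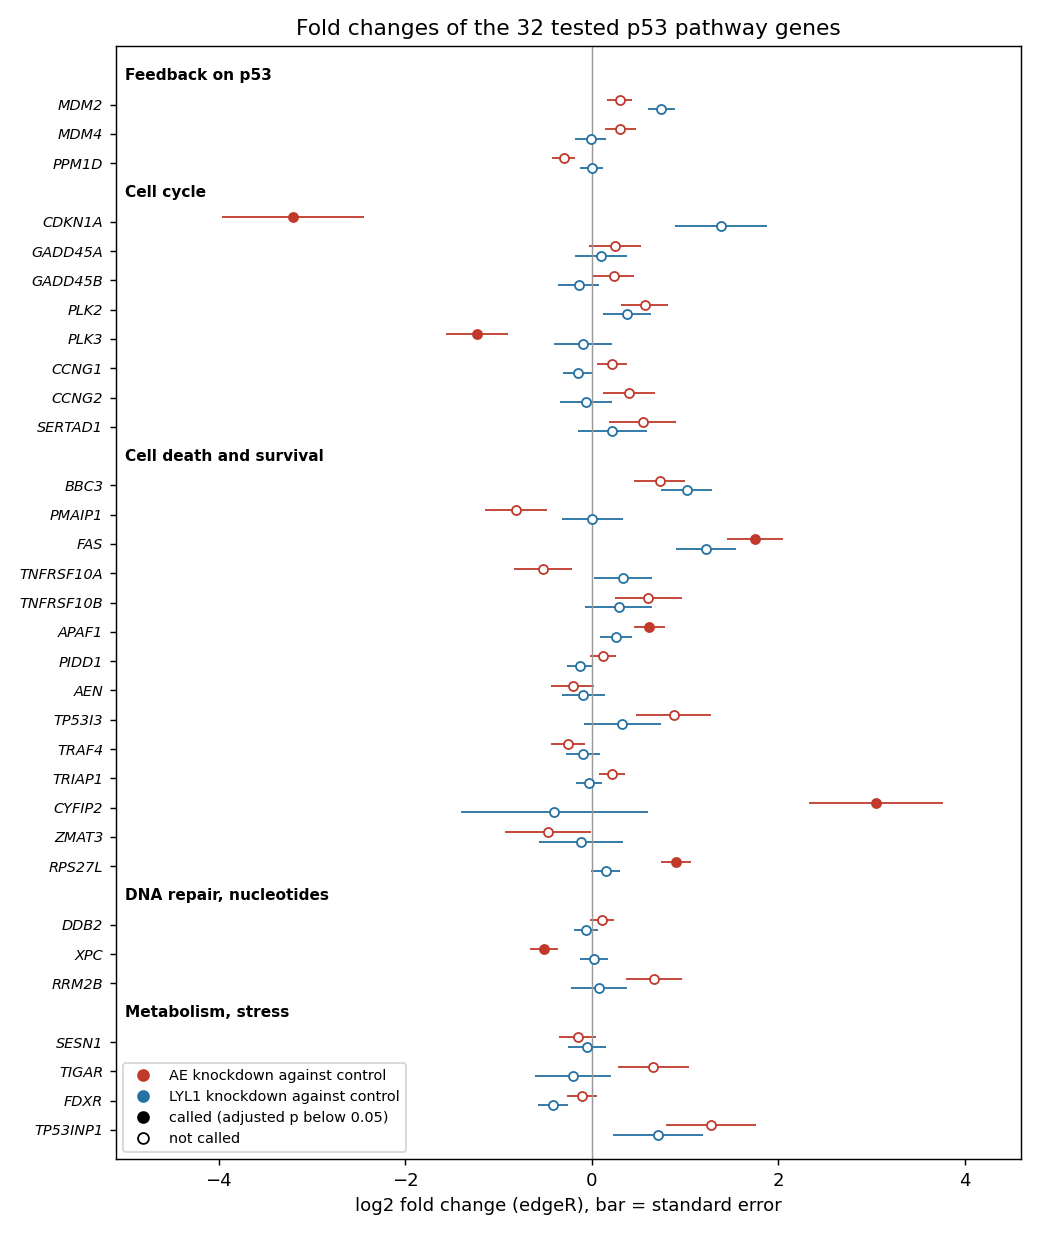
Fold changes of the 32 tested p53 pathway genes. The x axis gives the edgeR log2 fold change against control shRNA with its standard error as a bar, and genes run down the page by role. Red circles are AE knockdown and blue circles LYL1 knockdown, filled where called. CDKN1A at -3.20 and CYFIP2 at 3.05 mark the ends of the AE range, and no blue circle is filled.

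Among the feedback genes, MDM2 had 51.4, 53.3 and 42.1 CPM in AE knockdown cells, against 38.2, 40.7 and 40.7 CPM in control cells. All 3 AE libraries were above all 3 controls, yet the log2 fold change of 0.30 (SE 0.13) was not called (adjusted p = 0.135). MDM4, the relative of MDM2 that blocks the activation domain of p53, averaged 49.2 ± 10.5 CPM in AE knockdown cells and 39.7 ± 1.18 CPM in control cells (SD, n = 3 each), with overlapping libraries. PPM1D, a phosphatase that switches the damage response off, had 68.5, 61.6 and 61.6 CPM in AE knockdown cells, against 75.9, 77.9 and 81.4 CPM in control cells, all below the controls, and was not called (log2 fold change -0.30, adjusted p = 0.105).

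CDKN1A, which encodes the cyclin-dependent kinase inhibitor p21, had few reads in control cells and fewer after AE knockdown. It had 0.0715, 0.493 and 0 CPM in AE knockdown cells, from 2, 14 and 0 counts, against 1.74, 2.45 and 1.55 CPM in control cells, from 43, 65 and 37 counts. Every AE library lay below every control. The fitted log2 fold change was -3.20 (SE 0.76, adjusted p = 0.0161), and at counts this small its size is loose: it became -5.39 without AE replicate 2. Leaving out control replicate 2 ended the call (adjusted p = 0.0632), and the other 8 fits that leave out 1 library kept it. An antisense RNA gene, DINOL, overlaps CDKN1A in GENCODE v29, and the strand setting of the counting is not given in the sources used here.

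PLK3, a stress-responsive polo-like kinase, had 1.75, 4.4 and 1.64 CPM in AE knockdown cells, against 6.68, 6.33 and 5.5 CPM in control cells. Its groups did not overlap, and replicate 2 of the knockdown was nearest to the controls. It fell 2.34-fold (log2 fold change -1.23, SE 0.33, adjusted p = 0.025), a call that was lost without AE replicate 1 or without any 1 of the controls (adjusted p between 0.0648 and 0.0836). Without AE replicate 2 its log2 fold change was -1.86 (adjusted p = 0.0013). Its relative PLK2 had 2.83, 2.4 and 2.36 CPM in AE knockdown cells, against 1.46, 1.81 and 1.85 CPM in control cells, all above the controls and not called (adjusted p = 0.125). Of the other 5 cell cycle members, SERTAD1, a CDK4 partner, was above the controls in all 3 AE libraries. GADD45A and GADD45B, which bind stress kinases, and the cyclins CCNG1 and CCNG2 overlapped with the controls, and none of the 5 was called. CCNG1, a long-known p53 target, averaged 153 ± 29.8 CPM in AE knockdown cells and 131 ± 15.8 CPM in control cells.

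Of the 14 tested death and survival genes 4 rose and none fell (28.6% called), beside 21.8% of all genes called, 11.4% higher and 10.4% lower. FAS, the death receptor for FAS ligand, had 2.65, 1.69 and 2.6 CPM in AE knockdown cells, from 74, 48 and 54 counts, against 0.607, 0.678 and 0.756 CPM in control cells, from 15, 18 and 18 counts. The lowest AE library was above the highest control, and FAS rose 3.36-fold (log2 fold change 1.75, SE 0.30, adjusted p = 0.00531). This call was kept in all 9 fits that leave out 1 library. ACTA2, which overlaps FAS on the other strand, had a log2 fold change of 0.72 (adjusted p = 0.238).

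APAF1, the core of the apoptosome that activates caspase-9, had 34.2, 33.1 and 46.9 CPM in AE knockdown cells, against 22.7, 24.3 and 27.3 CPM in control cells. No library overlapped, with replicate 3 the highest, and APAF1 rose 1.53-fold (log2 fold change 0.62, SE 0.17, adjusted p = 0.0258). Without AE replicate 3 its log2 fold change was 0.43 and the adjusted p 0.0586, and without any 1 control the adjusted p was 0.0617 to 0.107. The part of that library's mature myeloid markers in this rise was not tested.

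CYFIP2, a partner of the FMRP protein that p53 is described as raising, was the member that rose the most. It had 1.14, 4.26 and 8.56 CPM in AE knockdown cells, from 32, 121 and 178 counts, against 0.607, 0.603 and 0.42 CPM in control cells, from 15, 16 and 10 counts. All AE libraries were above the controls but they spread widely, replicate 1 being near the controls. The log2 fold change was 3.05 (SE 0.72, adjusted p = 0.0168), and the call was lost without any 1 of the controls (adjusted p between 0.0627 and 0.0677).

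RPS27L, a ribosomal protein-like gene that feeds back on MDM2 and p53, had 30.4, 35.6 and 37.2 CPM in AE knockdown cells, against 18.3, 18.5 and 18.0 CPM in control cells. The groups were far apart, and RPS27L rose 1.88-fold (log2 fold change 0.91, SE 0.16, adjusted p = 0.00507) in the full fit and in all 9 fits that leave out 1 library. Other genes with shared sequence or position moved with it. Its paralog RPS27 had 600, 530 and 1134 CPM in AE knockdown cells, against 275, 269 and 243 CPM in control cells (adjusted p = 0.00932). LACTB, which overlaps it on the opposite strand, had 24.3, 17.1 and 34 CPM in AE knockdown cells, against 6.23, 8.25 and 10.4 CPM in control cells (adjusted p = 0.00483). How far reads of these genes were shared with RPS27L was not tested. All 7 called members overlap a gene on the opposite strand in GENCODE v29, as do 22 of the 34 members. LSM3, which overlaps XPC, had a log2 fold change of -0.01 after AE knockdown (adjusted p = 0.979). TCTEX1D4, which overlaps PLK3, ANKS1B, which overlaps APAF1, and ADAM19 and FNDC9, which overlap CYFIP2, had at most 5 counts in any library. Further genes that overlap XPC and CYFIP2 were not read.

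The remaining death genes were not called. BBC3, which encodes the BCL2-family killer PUMA, had 1.61, 1.62 and 1.83 CPM in AE knockdown cells, against 1.01, 0.942 and 1.09 CPM in control cells. It stood above the controls in every AE library (log2 fold change 0.73, SE 0.27, adjusted p = 0.0793). PMAIP1, which encodes its relative NOXA, had 37.3, 42.8 and 14.2 CPM in AE knockdown cells, against 52.5, 49.3 and 63.9 CPM in control cells, below the controls in every AE library (adjusted p = 0.103). The survival gene TRIAP1 was also above the controls in all 3. The TRAIL receptor genes TNFRSF10A and TNFRSF10B, PIDD1 of the PIDDosome, the nuclease gene AEN, the oxidoreductase gene TP53I3, the adaptor gene TRAF4 and the RNA-binding protein gene ZMAT3 overlapped with the controls. In the AE libraries ZMAT3 lay on both sides of the controls, with 3.79, 6.24 and 16 CPM against 12.4, 12.3 and 10.9 CPM in control cells.

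Of the DNA repair genes, XPC, which recognises DNA distortions in nucleotide excision repair, had 29.3, 27.9 and 36.9 CPM in AE knockdown cells, against 41.6, 42.6 and 49.9 CPM in control cells. No library overlapped, and XPC fell 1.43-fold (log2 fold change -0.51, SE 0.15, adjusted p = 0.0316). It was no longer called without AE replicate 1 (0.0722), without AE replicate 2 (0.0595) and without any 1 control (0.0736 to 0.124). DDB2, its partner in finding damage, averaged 36.4 ± 3.65 CPM in AE knockdown cells and 33.8 ± 0.839 CPM in control cells and was not called. RRM2B, the p53-inducible subunit of ribonucleotide reductase, had 43.1, 44.0 and 99.7 CPM in AE knockdown cells, against 36.8, 35.5 and 45 CPM in control cells. Its high mean came from replicate 3, the other AE libraries lay within the range of the controls, and it was not called (adjusted p = 0.125).

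None of the 4 tested metabolism and stress genes was called. TP53INP1, an autophagy and stress protein gene, had 21.8, 6.87 and 26.7 CPM in AE knockdown cells, against 7.08, 7.01 and 8.61 CPM in control cells. Replicates 1 and 3 were above all controls and replicate 2 just below them (log2 fold change 1.28, SE 0.48, adjusted p = 0.0816). GADD45B, CCNG2 and TP53I3 shared this arrangement, with replicates 1 and 3 above and replicate 2 below all 3 controls. TIGAR, a regulator of glycolysis, SESN1, a sestrin that restrains mTORC1, and FDXR, the mitochondrial ferredoxin reductase, overlapped with the controls.

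**Figure D2:**
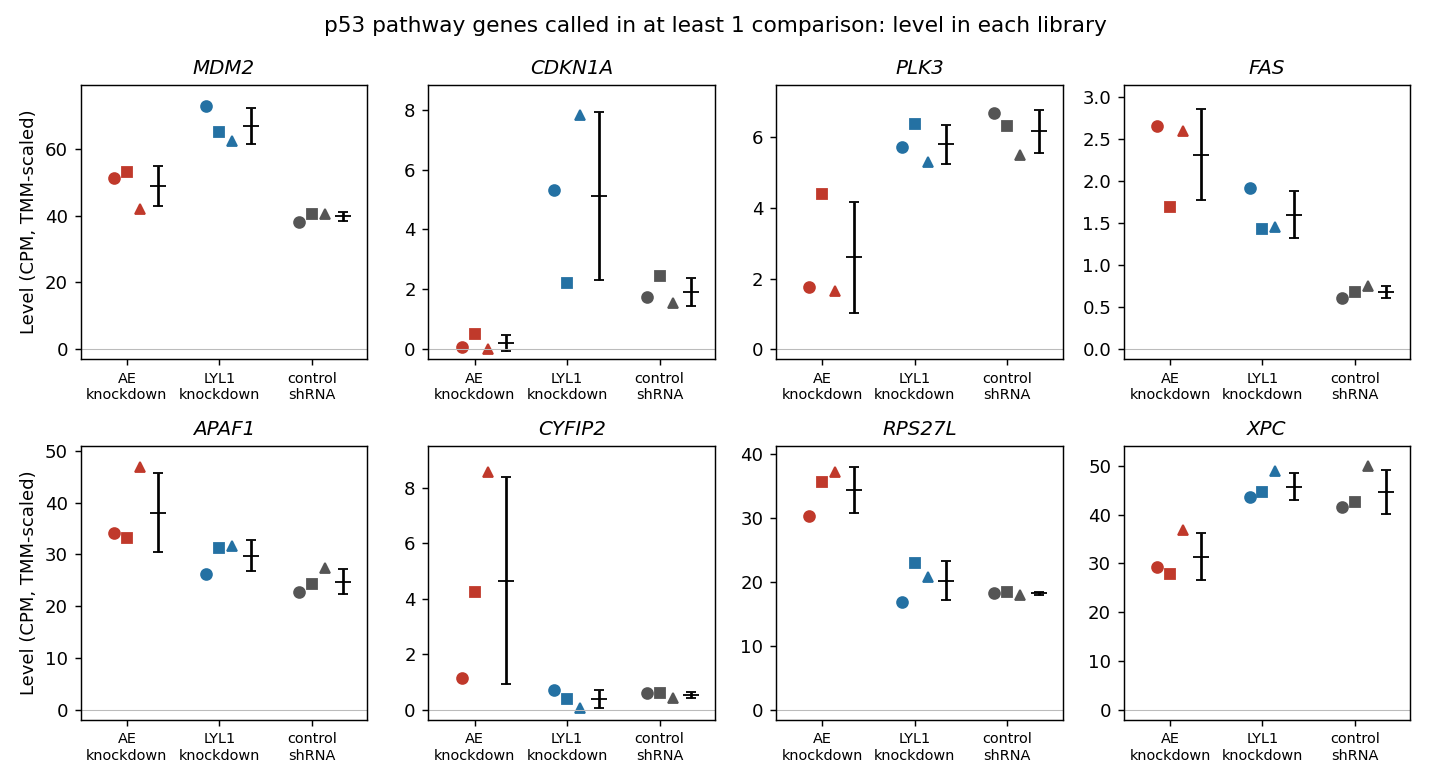
Levels of the 8 p53 pathway genes called in at least 1 comparison. Each panel is a gene, the y axis is CPM scaled by TMM and includes 0, points are libraries (circle, square and triangle for replicates 1, 2 and 3 or shRNAs 538, 540 and 542), and the bar is the mean with its SD (n = 3). CDKN1A lies at 0 to 0.493 CPM in AE knockdown cells, below all control libraries, and MDM2 is highest with LYL1 shRNAs, at 62.6 to 73.1 CPM.

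After LYL1 knockdown no p53 pathway gene was called by edgeR, and MDM2 had the smallest p of the members. These 0 of 32 members stand beside all genes, where 2 of the 14741 genes (0.0136%) were, 1 higher and 1 lower (0.00678% each). Of the 32 members 5 had an unadjusted p below 0.05, beside 711 of the 14741 genes tested. DESeq2 called 1 member, MDM2, and limma-voom none. For 5 members all LYL1 libraries lay above or below the controls, against 16.6% of all genes (8.41% above, 8.17% below). MDM2, PLK2, BBC3 and FAS were above the controls and FDXR was below. The median log2 fold change was 0.01 over the members and 0.01 over all genes tested. This comparison and that of AE knockdown share the same 3 control libraries, so a control value that lies low or high enters both.

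MDM2 had 73.1, 65.1 and 62.6 CPM with shRNAs 538, 540 and 542, against 38.2, 40.7 and 40.7 CPM in control cells. The lowest LYL1 library was well above the highest control. The log2 fold change was 0.75 (SE 0.14), with an unadjusted p of 0.000175 and an adjusted p of 0.201. The adjusted p was 0.00117 by DESeq2, 0.0302 in an edgeR fit of the 6 libraries compared and 0.0364 without AE replicate 3, with a log2 fold change of 0.74 in each. Leaving out 1 library at a time, it ran between 0.68 and 0.79.

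CDKN1A had 5.3, 2.21 and 7.83 CPM with shRNAs 538, 540 and 542, from 138, 57 and 157 counts, against 1.74, 2.45 and 1.55 CPM in control cells. shRNAs 538 and 542 were above the controls and 540 was among them (log2 fold change 1.39, SE 0.49, adjusted p = 0.895). FAS had 1.92, 1.43 and 1.45 CPM with the LYL1 shRNAs, against 0.607, 0.678 and 0.756 CPM in control cells. All 3 LYL1 libraries were above the controls, and the log2 fold change of 1.23 (SE 0.32) was not called (adjusted p = 0.596).

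BBC3 had 2.46, 2.13 and 1.55 CPM with the LYL1 shRNAs, against 1.01, 0.942 and 1.09 CPM in control cells, from 64, 55 and 31 counts against 25, 25 and 26. It too lay above the controls in all 3 (log2 fold change 1.02, SE 0.27, adjusted p = 0.63). PLK2 had 1.92, 1.97 and 2.84 CPM with the LYL1 shRNAs, against 1.46, 1.81 and 1.85 CPM in control cells, a narrow gap for 538 and 540, and its log2 fold change of 0.38 was 0.19 without shRNA 542. FDXR, which passes electrons to mitochondrial cytochromes P450, had 6.45, 6.58 and 6.63 CPM with the LYL1 shRNAs, against 9.11, 8.44 and 8.61 CPM in control cells. It was the only member below the controls with every LYL1 shRNA (log2 fold change -0.41, SE 0.16, adjusted p = 0.97). FAS, BBC3, PLK2 and FDXR in this comparison were picked after their values were seen.

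The 3 LYL1 shRNAs, each 1 library and so without a test, differed among themselves. With 538, 14 of the 32 members were above all controls and 7 below, against 33.3% and 32.2% of all genes tested. With 540 these were 12 and 8, against 33.3% and 32.5%. With 542, which left the least LYL1 mRNA, they were 13 and 16, against 35% and 35.5%. CDKN1A, TP53I3, TNFRSF10A and TP53INP1 were above the controls with 538 and 542 but not with 540. RPS27L and APAF1 were above them with 540 and 542 only. CYFIP2 had 0.0499 CPM with 542, from 1 count, and 0.729 and 0.387 CPM with 538 and 540.

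**Figure D3:**
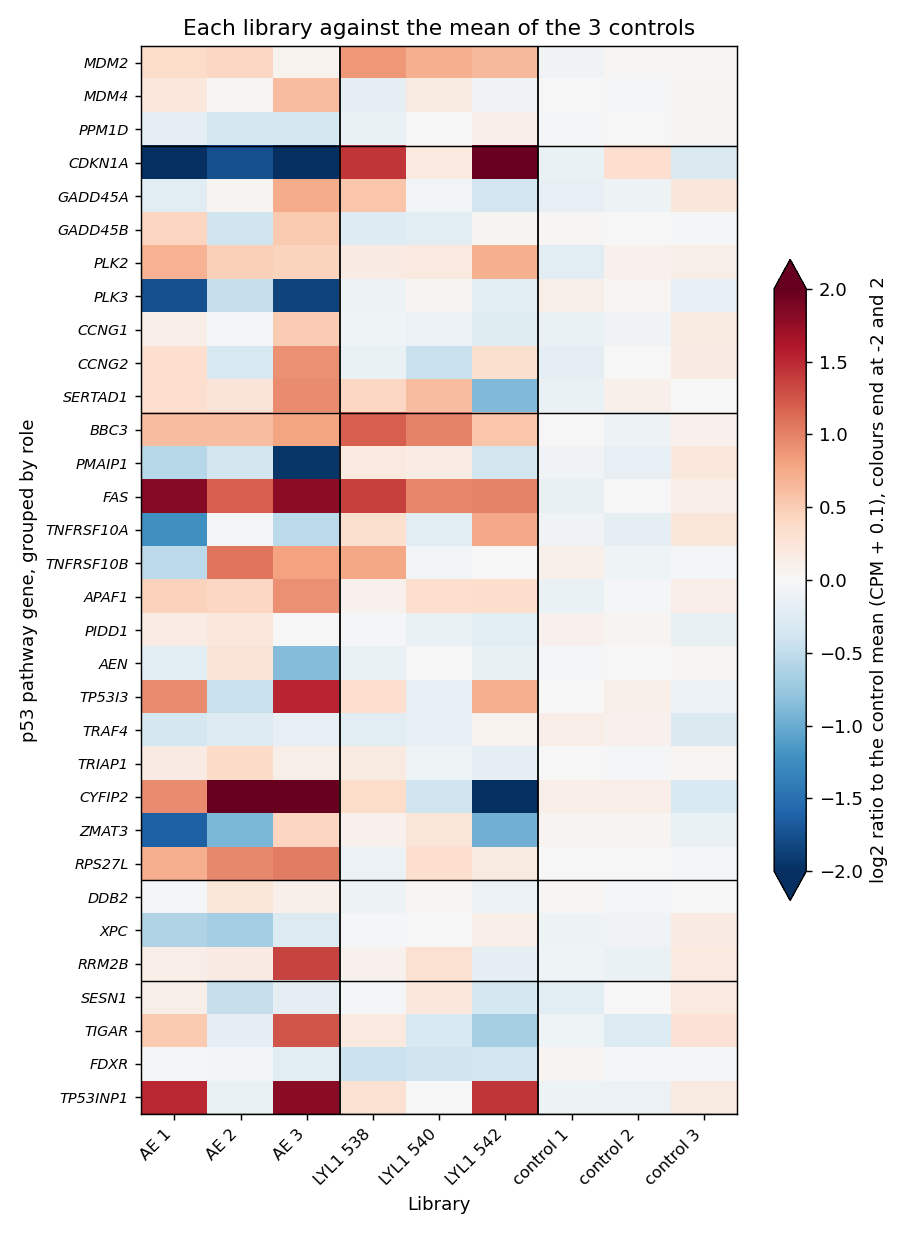
Each library against the mean of the 3 controls. Rows are the 32 tested p53 pathway genes by role, columns the 9 libraries, and colour the log2 ratio of CPM + 0.1 to the control mean, red above and blue below, with colours ending at -2 and 2. MDM2, PLK2, BBC3 and FAS are above the controls in all 6 knockdown libraries, and CDKN1A is blue in the AE columns and red or pale in the LYL1 columns. The gap is narrow for MDM2 in AE replicate 3 (42.1 CPM against at most 40.7 CPM in controls). It is also narrow for PLK2 with shRNA 538 (1.92 CPM against at most 1.85 CPM in controls). The share of all genes above the controls in all 6 libraries was not counted.

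The contrast of the AE and LYL1 knockdowns tests the difference between them directly. CYFIP2 and RPS27L were higher and CDKN1A, MDM2, PLK3 and XPC lower in AE knockdown than in LYL1 knockdown cells. These 6 of 32 members (18.8%) stand beside 20.4% of all genes tested (10.7% higher, 9.7% lower). The libraries did not overlap for 11 members, 6 above and 5 below, against 35.5% of all genes (18.2% above, 17.2% below). The median log2 fold change was 0.25 over the members and 0.03 over all genes.

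CDKN1A averaged 0.188 ± 0.267 CPM in AE knockdown cells and 5.11 ± 2.82 CPM in LYL1 knockdown cells (SD, n = 3 each), a log2 fold change of -4.59 (SE 0.69, adjusted p = 0.00354) that was called in all 9 fits without 1 library. With 2, 14 and 0 counts in the AE libraries its size is loose, and it ran between -6.78 and -4.13 in those fits. No AE library reached the lowest LYL1 library. MDM2 averaged 49.0 ± 5.98 CPM in AE knockdown cells and 66.9 ± 5.5 CPM in LYL1 knockdown cells, again without overlap. Its log2 fold change of -0.45 (SE 0.13, adjusted p = 0.0374) was called in 2 of the 9 fits without 1 library, was lost in the other 7, and the adjusted p was 0.121 in a fit of the 6 libraries compared.

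RPS27L averaged 34.4 ± 3.57 CPM in AE knockdown cells and 20.2 ± 3.11 CPM in LYL1 knockdown cells (log2 fold change 0.77, SE 0.15, adjusted p = 0.00908). CYFIP2 averaged 4.66 ± 3.72 CPM in AE knockdown cells and 0.389 ± 0.34 CPM in LYL1 knockdown cells (log2 fold change 3.45, SE 0.76, adjusted p = 0.0133). Both were called in all 9 fits without 1 library. PLK3 averaged 2.6 ± 1.57 and XPC 31.3 ± 4.81 CPM in AE knockdown cells, against 5.8 ± 0.554 and 45.8 ± 2.86 CPM in LYL1 knockdown cells. The log2 fold changes were -1.14 for PLK3 (adjusted p = 0.0346) and -0.55 for XPC (adjusted p = 0.0269), and PLK3 was lost in 8 of the 9 fits without 1 library, while it was -1.77 (adjusted p = 0.0015) without AE replicate 2. XPC was lost without AE replicate 1 or without any 1 LYL1 library. FAS, called higher in AE knockdown than in control cells, had a log2 fold change of 0.52 (SE 0.27, adjusted p = 0.189) against LYL1 knockdown, so its difference between the knockdowns was not called.

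The members varied more between the libraries of a knockdown than between controls. The SD was above that of the controls for 29 members in AE knockdown and 26 in LYL1 knockdown cells. The median SD of log2 levels over the 32 members was 0.36 in AE knockdown, 0.24 in LYL1 knockdown and 0.14 in control cells, close to the 0.32, 0.23 and 0.12 over all genes tested. In AE replicate 1, 16 members were above all 3 controls and 12 below, against 41.8% and 37.7% of all genes tested. In replicate 2 these were 13 and 12, against 40.2% and 37.5%, and in replicate 3 they were 21 and 8, against 44.6% and 41.7%. Among the AE libraries, replicate 3 was the highest for 17 members and the lowest for 10. It was the highest for 40.17% and the lowest for 37.51% of all genes tested.

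Further genes of the pathway were read from lists of regulators, other targets and neighbouring responses, chosen with earlier results of these data known. The share called in each list is therefore a description only. Of 19 tested regulators of p53, 4 rose and 4 fell after AE knockdown (42.1% called, against 21.8% of all genes tested, 11.4% higher and 10.4% lower), with a median log2 fold change of -0.01. HIPK2, a kinase that phosphorylates p53, fell to 15.4 ± 6.75 CPM in AE knockdown cells, against 57.6 ± 3.43 CPM in control cells (adjusted p = 0.00332). USP7, the deubiquitinase of MDM2 and p53, fell to 164 ± 29.1 CPM in AE knockdown cells, against 295 ± 10.9 CPM in control cells (adjusted p = 0.00507). BRD7, a bromodomain cofactor of p53, fell to 97.1 ± 15.0 CPM in AE knockdown cells, against 159 ± 5.83 CPM in control cells (adjusted p = 0.00776). COP1, another ubiquitin ligase for p53, rose to 77.3 ± 8.33 CPM in AE knockdown cells, against 49.5 ± 1.46 CPM in control cells (adjusted p = 0.00776). All 4 calls were kept in the 9 fits without 1 library. The same 4 genes were called in the same direction against LYL1 knockdown cells, where HIPK2 averaged 70.8 ± 9.64 CPM, although COP1 and BRD7 were not in a fit of only the 6 libraries of that contrast.

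Of 32 other described p53 targets, 21 were tested, and 6 rose and 4 fell after AE knockdown, 47.6% against 21.8% of all genes tested (median log2 fold change 0.33, against 0.05 over all genes). Whether either list differs from other genes was not tested. NINJ1, which ruptures the membrane of dying cells, rose 4.09-fold (adjusted p = 0.00519), ANKRA2, an ankyrin repeat protein gene, 2.67-fold (adjusted p = 0.00622) and BLOC1S2, a lysosome-positioning subunit gene, 1.55-fold (adjusted p = 0.0109). The antiproliferative gene BTG2 rose 6.39-fold (adjusted p = 0.0102) at a low level, 0.626 ± 0.143 CPM in AE knockdown cells and 0.0927 ± 0.0177 CPM in control cells. BAX, the pore-forming effector of apoptosis, was among the 4 that fell, with 22.2 ± 2.45 CPM in AE knockdown cells and 30.2 ± 0.663 CPM in control cells (adjusted p = 0.0442), and is named after its values were seen. The calls of NINJ1 and ANKRA2 were kept in the 9 fits without 1 library, BTG2 was lost without control replicate 1 or 3 and BLOC1S2 without control replicate 1 or 2. EDA2R, GDF15 and LIF had 0 counts in all 9 libraries, which allows up to 0.106 to 0.149 CPM per library at a floor of 3 counts.

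Of 20 tested cell cycle genes that p21 is described as lowering through the DREAM complex, 5 fell and none rose after AE knockdown. This share of 25% stands beside 10.4% of all genes tested that were called lower and 21.8% called in either direction. Whether this list differs from other genes was not tested. The list had a median log2 fold change of -0.34 and all 20 fold changes at or below 0. Over all 14741 genes tested the median was 0.05, and 6883 fold changes were below 0. MKI67, the proliferation antigen gene, had 211 ± 78.3 CPM in AE knockdown cells and 414 ± 11.8 CPM in control cells (adjusted p = 0.0161), and TOP2A, the mitotic topoisomerase gene, 538 ± 79.0 CPM in AE knockdown cells and 855 ± 27.4 CPM in control cells (adjusted p = 0.013). FOXM1 and PLK1, a regulator and a kinase of mitosis, fell by 0.67 and 0.81 on the log2 scale (adjusted p = 0.0162 and 0.0203). Each of these 4 calls was lost without at least 2 of the controls in turn.

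Lists of 2 neighbouring responses, described as able to raise some members without p53, were also read, and their calls were falls. Of all genes tested 21.8% were called, 10.4% lower and 11.4% higher, so the shares called were near that of any gene. Whether these lists differ from other genes, or whether either response acted on the members, was not tested. In the integrated stress response list, which can raise TNFRSF10B, BBC3 and PMAIP1, 3 of 11 fell and none rose (27.3%). The median log2 fold change was -0.51, and 3 of the 11 fold changes were above 0. ASNS, the asparagine synthetase gene, fell 3.04-fold (adjusted p = 0.0269), VLDLR, a lipoprotein receptor gene, 1.66-fold (adjusted p = 0.0378) and SLC7A11, the cystine transporter gene, 2.33-fold (adjusted p = 0.0429). In the list of FOXO factors and targets, which can raise CCNG2 and SESN1, 3 of 13 fell and none rose (23.1%, median 0.09). Of these 13 fold changes 8 were above 0, beside 7858 of the 14741 over all genes tested. FOXO3 fell 1.85-fold (adjusted p = 0.00409), FOXO1 2.0-fold (adjusted p = 0.00506) and IRS2, an insulin receptor substrate gene, 1.79-fold (adjusted p = 0.0142). FOXO3 and FOXO1 were called in all 9 fits without 1 library, while IRS2 and the 3 stress response genes were lost without 2 or more of the controls in turn. After LYL1 knockdown no gene of these 5 lists was called by edgeR.

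**Figure D4:**
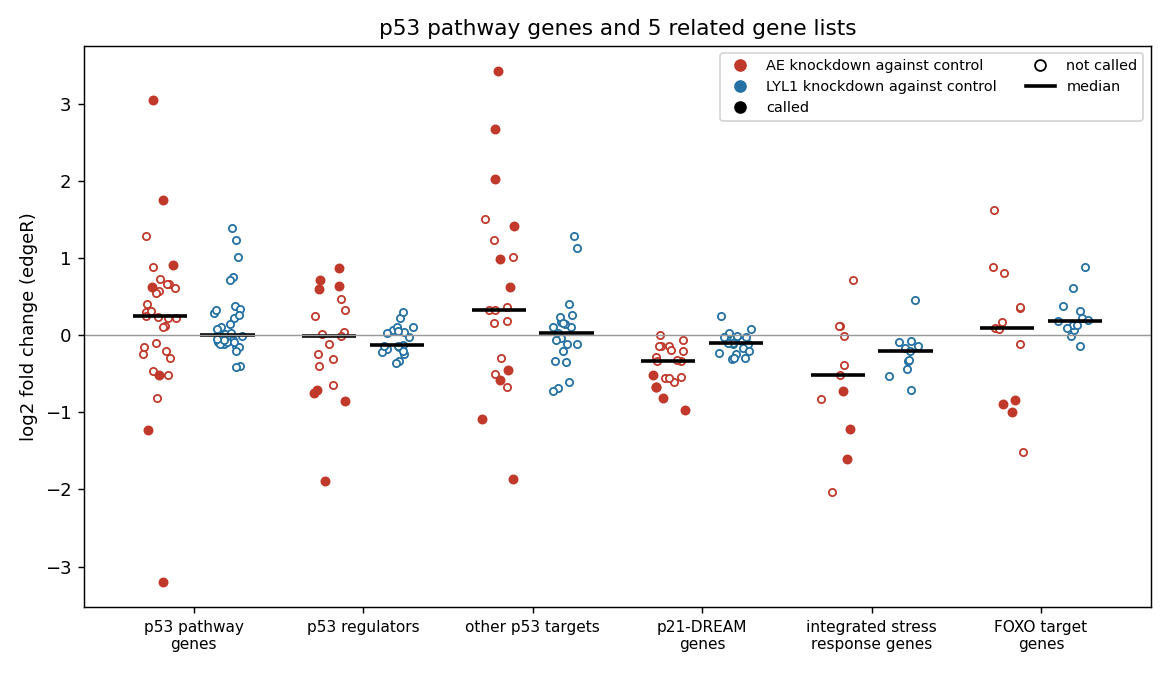
The p53 pathway genes beside 5 related gene lists. The y axis is the edgeR log2 fold change, each circle is a tested gene (red for AE knockdown against control, blue for LYL1 knockdown against control, filled where called) and black lines are medians. For AE knockdown the medians are 0.24 for the p53 pathway genes, 0.33 for the other p53 targets and -0.34 for the p21-DREAM genes, and no blue circle is filled.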

How the data were processed

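RNA sequencing counts of 9 Kasumi-1 libraries in 3 groups of 3 were used. The authors deposited whole-number read counts per gene symbol for 59648 genes, with no normalisation. The submitters' processing notes name the build hg19 and, without a role for each, featureCounts 2.0.1, HISAT2 2.2.0, DESeq2 1.26.0, fastp 0.20.1 and SAMtools 1.7. The annotation, strand setting and treatment of multi-mapped reads are not given in the sources used here, so counts of overlapping genes and of near-identical copies are uncertain. A trailing suffix was removed from 5 gene names in 6 files. Depth was 20103275 to 28039518 counts per library, and intervals or floors cover counting error only.

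Groups were read from the sample titles. Genes were kept by filterByExpr (14741), scaled by TMM and tested in edgeR 4.0.16 (quasi-likelihood F test, robust, a single group-means model of all 9 libraries; limma 3.58.1 and R 4.3.3), with Benjamini-Hochberg adjustment over all genes and calls at an adjusted p below 0.05. SE is the log2 fold change divided by the square root of F, and CPM is given as mean ± SD of 3 libraries. The prior count behind fold changes was 0.125. The fit was tested on simulated data. Library totals stand for depth, and no pair of libraries of the same group agreed within sampling noise.

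The members and gene lists were chosen with earlier results of these data known. Named genes are MDM2, CDKN1A, every member called in any comparison and up to 4 called genes per list and comparison with the smallest adjusted p. Another gene that this rule names is not reported here. Alternatives were median-of-ratios, upper-quartile and library-size scaling, no filter or 50 counts in 3 libraries, DESeq2 1.42.0, limma-voom, only the 6 libraries compared, leaving out each library and a replicate block. Promoters are RefSeq windows on GRCh38.p14, used for sequence only.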

Additional observations from a re-analysis of the deposited data

How the results depend on the processing

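For AE knockdown against control, 7 members and 3214 genes were called. A replicate block gave 4 and 1629, and leaving out each library 2 to 10 members and 954 to 4267 genes, the lowest values being those without a control (954 to 1096 genes). FAS and RPS27L were called under each alternative. The block ended the calls of PLK3 (adjusted p = 0.0515), APAF1 (0.0566) and XPC (0.0619). An edgeR fit of only the 6 libraries compared called 5 members and 2579 genes, and lost PLK3 (adjusted p = 0.058) and XPC (0.0504). AE and control libraries of the same number did not deviate together (r across genes of 0.0416, -0.0135 and 0.00685). The median SD of log2 levels over all genes tested was 0.32 in AE knockdown and 0.12 in control cells. With spreads this unequal, such small r values cannot settle whether equal numbers mark paired libraries. No paired analysis was possible for LYL1 knockdown because its shRNA numbers are not shared with other groups. For CYFIP2 the call was lost with no filter (0.0712) and by limma-voom (0.0572).

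For LYL1 knockdown against control, 0 members and 2 genes were called, against 5 genes with library size only, 8 with no filter, 1 with the strict filter, 33 by DESeq2 (1 member), 15 with only the 6 libraries compared (1 member) and 1 to 11 leaving out each library (0 or 1 members). That member was MDM2 each time. For AE against LYL1 knockdown, 6 members and 3003 genes became 3 and 941 with only the 6 libraries compared, and 3 to 13 members and 1467 to 4007 genes leaving out each library. The counts per LYL1 shRNA of members outside the range of the controls, 21, 20 and 29, were 22, 21 and 29 with library size only, an alternative chosen after seeing the data.

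The cause of these changes was not tested. At 0 to 14 counts in the AE libraries, the size of the CDKN1A fall is limited by depth.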

Other observations

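Between the knockdowns, 21 tested genes of the list of other p53 targets gave 8 that were higher and 2 that were lower in AE knockdown than in LYL1 knockdown cells, with a median log2 fold change of 0.16, where 10.7% of all genes tested were higher and 9.7% lower. CD82, a membrane tetraspanin gene, averaged 32.5 ± 24.7 CPM in AE knockdown cells and 2.6 ± 1.01 CPM in LYL1 knockdown cells (SD, n = 3 each, adjusted p = 0.00977 by edgeR). The AE libraries had 50.7, 4.37 and 42.4 CPM, so replicate 2 was near the LYL1 libraries, with 3.34, 3.02 and 1.45 CPM. The call of CD82 was lost by limma-voom (adjusted p = 0.0597) and with no filter (0.0665). NINJ1 averaged 17.3 ± 6.28 CPM in AE knockdown cells and 2.71 ± 1.37 CPM in LYL1 knockdown cells (adjusted p = 0.00273). In the integrated stress response list PPP1R15A, which restores translation after stress, averaged 24.5 ± 5.14 CPM in AE knockdown cells and 44.0 ± 6.53 CPM in LYL1 knockdown cells (adjusted p = 0.0106). It was the only gene of that list called in this contrast. In the list of cell cycle genes 3 of 20 were lower and none higher, among them cyclin A2 (CCNA2), with 140 ± 28.1 CPM in AE knockdown cells and 200 ± 14.3 CPM in LYL1 knockdown cells (adjusted p = 0.0375), a call lost in 8 of the 9 fits without 1 library. In the FOXO list 4 of 13 genes were lower and none higher, FOXO1 with 6.65 ± 0.488 CPM in AE knockdown cells and 13.2 ± 1.81 CPM in LYL1 knockdown cells (adjusted p = 0.00493). The repressor gene BCL6 averaged 2.35 ± 1.59 CPM in AE knockdown cells and 11.8 ± 9.5 CPM in LYL1 knockdown cells (adjusted p = 0.0424), a call lost in 7 of the 9 fits without 1 library.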
